A study of Homo sapiens with 18 samples.

Results

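The probe sets described here detect subunits of the 5 enzyme complexes of oxidative phosphorylation and a few of their partners. They were chosen by gene symbol alone: every probe set of the HG-U133 Plus 2.0 array that is assigned to 1 symbol, with a symbol of the NDUFA, NDUFB, NDUFC, NDUFS or NDUFV series, of SDHA to SDHD, of the UQCR genes, of the COX series numbered 1 to 8, of the ATP5 genes, or CYC1. The rule gave 154 of 54675 probe sets, for 79 genes. Complex I holds 61 of these probe sets (32 genes), complex II 10 (SDHA, SDHC and SDHD), complex III 14 (7 genes), complex IV 30 (18 genes) and complex V 39 (19 genes). Of the 79 genes, 76 encode subunits. The rule also took in COX11, an assembly factor, ATP5IF1, the inhibitor of the ATP synthase, and ATP5MC2P1, a pseudogene. A further 12 probe sets list a fitting symbol together with others and were not counted.

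Oxidative phosphorylation takes place in the inner mitochondrial membrane. Complex I (NADH dehydrogenase) and complex II (succinate dehydrogenase) pass electrons to ubiquinone, complex III (ubiquinol-cytochrome c reductase) passes them to cytochrome c, and complex IV (cytochrome c oxidase) passes them to oxygen. Complexes I, III and IV pump protons, and complex V (ATP synthase) uses the resulting gradient to make ATP. Most subunits are encoded in the nucleus, whereas a few core subunits, among them COX1, COX2 and COX3, are encoded in the mitochondrial genome. All subunits of complex II are nuclear.

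The RNA came from 1 sample of untreated FTC-133 cells, an established line from a human follicular thyroid carcinoma, and aliquots of the same hybridization mix were placed on 3 arrays, A, B and C. Each array went through a first and then a second series of staining, which adds fluorescent streptavidin-phycoerythrin and an amplifying antibody to the bound targets, and of stringent washing. In the second series arrays A and B were scanned after 0, 2, 7 and 17 further cycles, which gave scans A5 to A8 and B5 to B8 (totals of 17, 19, 24 and 34 cycles on A and of 21, 23, 28 and 38 on B). In the first series the same steps gave A1 to A4 (totals of 0, 2, 7 and 17) and B1 to B4 (totals of 2, 4, 9 and 19, since array B received 2 cycles before staining). Array C was scanned once per series, as C2 after a total of 12 cycles and as C1 after a total of 6. The 6 cycles of C1 came before staining, by the standard protocol, and none followed it. The scans therefore differ in array, staining and washing, and all 18 measure the same RNA. With 1 RNA sample and 3 arrays, every p-value below measures spread between scans and arrays and none between samples. That spread includes the differences in washing protocol between the arrays. The signals are MAS5 values, 1 per probe set and scan, on a linear scale. Their trimmed mean, read from the values, was nearly the same in every scan. With a common mean per scan a loss shared by all probe sets cannot be seen. A higher signal after washing is higher relative to that mean. The study reports that probe intensities fell with washing and that the most intense probes stayed nearly unchanged. Changes are given on the log2 scale after centring each scan on the median of its probe sets. A change of 0 is thus the change of the median probe set, whose signal as deposited was 86.3 after 17 cycles and 136 after 0 cycles on array A in the first series.

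Markers of the labelled cell type were in part above the median of all probe sets, which was 51.0 on scan C1. Of the 7 thyroid markers analysed, read by their brightest probe sets, the transcription factors NKX2-1 (766), PAX8 (757) and HHEX (176) and the iodide transporter SLC5A5 (87.7) were above it, whereas thyroglobulin TG (40.7), FOXE1 (39.9) and the TSH receptor TSHR (38.9) were below. The epithelial markers KRT18, KRT8 and EPCAM had 1408, 514 and 214. The leukocyte markers ITGAM, CD3E and PTPRC had 42.8, 42.6 and 24.6, and the erythroid marker HBB had 107.

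The control regions of the genes can be set beside these levels. Nuclear respiratory genes are known for binding sites of NRF1 and of ETS factors near their starts, and the windows below are shown because they hold the letters of such sites in 1 gene of each complex, chosen after the matches were known. RefSeq (GRCh38.p14) supplied a promoter of 300 bases, from 250 before to 50 after the start, for 63 of the 79 genes and for 15842 protein-coding genes in all. An NRF1-type motif, spelled GCGCA, then any base, then GCGC and searched on both strands, occurred in 16 of the 63, or 25.4%, and in 8.57% of the 15842. It was found in 6 of 30 promoters of complex I, 2 of 2 of complex II, 3 of 5 of complex III, 1 of 12 of complex IV and 4 of 14 of complex V. The letters CCGGAAG, an ETS-type motif on both strands, occurred in 17 of the 63, or 27.0%, and in 14.2% of all, and 4 of the 17 were in complex IV. A match is a description of the letters and no evidence of binding. The lines give the strand of the gene, 5′ to 3′, with the match in capitals.
NDUFA12 (complex I, NRF1-type, chr12:95003774-95003843, minus strand): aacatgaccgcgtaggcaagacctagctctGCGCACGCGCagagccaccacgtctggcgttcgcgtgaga
SDHD (complex II, NRF1-type, chr11:112086733-112086802, plus strand): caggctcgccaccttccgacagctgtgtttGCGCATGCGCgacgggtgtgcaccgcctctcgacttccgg
UQCRC1 (complex III, NRF1-type, chr3:48609654-48609723, minus strand): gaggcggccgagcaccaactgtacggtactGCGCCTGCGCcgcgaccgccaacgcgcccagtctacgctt
COX6A1 (complex IV, ETS-type, chr12:120438067-120438112, plus strand): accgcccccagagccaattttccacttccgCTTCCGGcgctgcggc
ATP5PO (complex V, NRF1-type, chr21:33915805-33915858, minus strand): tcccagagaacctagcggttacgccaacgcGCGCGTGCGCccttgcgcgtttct
SDHD also holds the ETS-type letters. The 1 promoter of complex IV with the NRF1-type letters was that of COX8C, a testis isoform whose probe set had a signal of 3.67 on scan C1.

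Most members were bright. On scan C1, 96 of the 154 probe sets lay in the brightest 10% of all probe sets and 29 in the brightest 1%, whereas 26 lay below the median of all. Signals of different probe sets depend on their probe sequences as well as on the transcript, so they do not rank the subunits by abundance. The median signal on C1 was 1492 for complex I, 1129.8 for complex II, 3295 for complex III, 2347 for complex IV and 3233 for complex V. Where each gene was represented by its brightest probe set, 71 of 79 genes were in the brightest 10%, and the medians were 3214, 3645, 5408, 6335 and 8785 in the order of complexes I to V. The highest signals of complex IV were those of the mitochondrially encoded COX1 (27839) and COX2 (23894) and of the nuclear COX7C (14404). Those of complex V belonged to ATP5MK, a small membrane subunit (18079), to ATP5F1A, the alpha subunit of the catalytic F1 part (16880), and to ATP5MG, a further membrane subunit (13664). Within complex I the accessory subunits NDUFB9 (12218), NDUFB2 (12008) and NDUFB1 (8713) were brightest, and in complex III UQCRB (13023), UQCRQ (6898) and UQCR10 (6417).

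The first comparison asked what 17 cycles of washing did after the first staining. All complexes had median changes above that of the median probe set. The median change over 17 cycles was 0.72 for complex I, 0.42 for complex II, 0.93 for complex III, 0.95 for complex IV and 1.20 for complex V, against 0.01 over all probe sets and 0.87 over the brightest 10% of all. On array A the medians were 1.09, 0.78, 1.32, 1.41 and 1.56 in the order of the complexes, and on array B 0.56, 0.29, 0.62, 0.63 and 0.91. The medians were thus larger on array A in all 5 complexes. Their size rests on the scale. On the signals as deposited complex I had a median change of 0.27 and complex II one of -0.03, and after quantile normalization, which gives every scan the same distribution, the medians of the 5 complexes were 0.04, -0.29, -0.08, 0.0077 and 0.06. Leaving out scan A1 gave 0.77 for complex V, and leaving out single scans gave 0.15 (without A1) to 0.69 (without B1) for complex II.

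No member passed the test of the first washing series (limma, 0% of all probe sets called), and the lowest adjusted p among the members was 0.27. At an unadjusted p under 0.05, 64 members (41.6%) were higher and 5 (3.25%) lower, of 3357 higher (6.14%) and 3393 lower (6.21%) among all. In the brightest 10% of all, 35.6% were higher and 0% lower. Whatever the p, 2.71% of these bright probe sets had a change below 0, against 22.1% of the members. By direction, 105 of the 154 members (68.2%) were above the median probe set on both arrays, where 27.4% of all probe sets were, and 23 members (14.9%) were below it on both arrays, where 26.8% of all were. The count was 42 of 61 probe sets in complex I, 5 of 10 in complex II, 9 of 14 in complex III, 21 of 30 in complex IV and 28 of 39 in complex V. With limma's variance trend and robust moderation the test called 61 members higher (3.41% of all probe sets) and 0 lower (0.207% of all): 19 of complex I, 1 of complex II, 6 of complex III, 13 of complex IV and 22 of complex V. A line in the logarithm of the cycles called 26 members higher (1.01% of all) and 0 lower (0.201% of all). The verdict on single members therefore depends on how the variance is estimated from 8 scans and on how the washing steps are modelled.

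**Figure D1:**
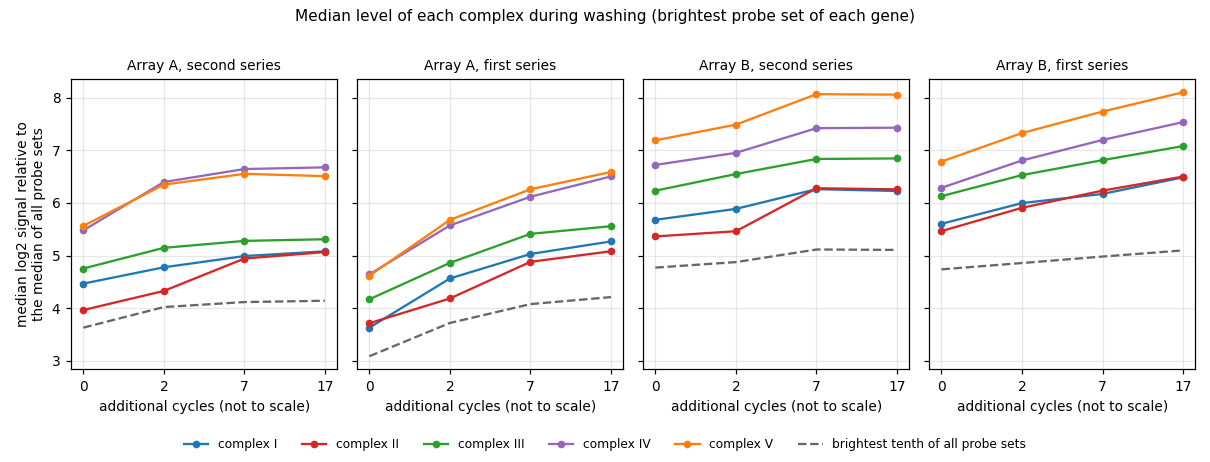
Median centred log2 signal of each complex after 0, 2, 7 and 17 additional cycles (horizontal axis, not to scale), for the brightest probe set of each gene, on arrays A and B in the second and the first series, with the brightest 10% of all probe sets dashed. The lines of all complexes lie above the dashed line, and those of the first series climb further on array A than those of the second.

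In complexes I, III, IV and V the step from 0 to 2 cycles was the largest on array A in the first series. With the brightest probe set of each gene, the median level of complex V on array A was higher by 1.06 between 0 and 2 cycles, by 0.58 between 2 and 7 and by 0.33 between 7 and 17. That of complex I was higher by 0.94, 0.47 and 0.24 over the same steps, that of complex III by 0.69, 0.55 and 0.15 and that of complex IV by 0.93, 0.55 and 0.39. In complex II the step from 2 to 7 cycles was the largest, with 0.47, 0.70 and 0.20. On array B, which had been washed before staining, the steps of complex V were 0.54, 0.41 and 0.37. They were smaller at the start than those of array A and more even.

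COX7C, a small nuclear subunit of complex IV, had the largest change of any brightest probe set in its complex. Its signal as deposited was 5838, 10167, 14487 and 18386 on array A after 0, 2, 7 and 17 cycles, and 9678, 15959, 22150.0 and 28189 on array B. With each scan at nearly the same trimmed mean, it was higher at each further step on both arrays. The centred change was 2.05 ± 0.39 (SE of the limma fit, 2 arrays, adjusted p = 0.27). COX2, one of the core subunits with copper centres, had 11029 to 31130.0 on array A and 17113 to 45987 on array B by its probe set 1553569_at. In complex V the signal of ATP5MK was 7909, 12869, 17888 and 22060.4 on array A, while array B had 13765, 21469.5, 28772 and 35811, a centred change of 1.89 ± 0.39. In complex I that of NDUFB2 was 3461, 5679.7, 7646 and 9309 on array A, while array B had 8222, 12234, 16292 and 20539, a change of 1.83 ± 0.39. The 4 scans of an array were in the order of the washing steps for each of these genes.

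Other members had smaller changes. NDUFA10, an accessory subunit of complex I, had 1144, 1097, 1056 and 1164 on array A, while array B had 1447, 1342, 1265 and 1189, so its signal as deposited stayed level on A and was lower after washing on B. Its centred change of 0.33 ± 0.40 was the smallest of complex I by the brightest probe set. The changes of NDUFV3, a subunit of the NADH-oxidizing module (0.38 ± 0.44), and of NDUFA7 (0.41 ± 0.37) were next. On the signals as deposited these 3 changes were below 0, at -0.13, -0.076 and -0.046. Of all 154 members 34 (22.1%) were below 0 on the centred scale, 54 as deposited and 71 after quantile normalization. On the centred scale 49.6% of all probe sets and 2.71% of the 5468 brightest on scan C1 were below 0. For the other scales no such shares were computed, so the counts of 54 and 71 have no background beside them. The 5 core subunits of complex I among the members, NDUFS1, NDUFS3, NDUFS7, NDUFV1 and NDUFV2, had a median change of 0.74, against 1.28 for the 27 accessory subunits. Their signals were also lower, with a median on C1 of 1818 for the core and 4723 for the accessory subunits. In complex V the delta subunit ATP5F1D had a change of 0.75 ± 0.40, at signals of 759, 982, 1096 and 995 on array A, while array B had 984, 1084, 1188 and 1127.

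Over all its probe sets complex II had the lowest median signal and the smallest median change. Of these 10 probe sets, 7 are of SDHC, and SDHB has none under the rule. By the brightest probe set of each gene, its median signal of 3645 was above the 3214 of complex I. Its median change of 0.76 was still the smallest. SDHA, the catalytic flavoprotein, had 1784, 1933, 2689 and 2921 on array A, while array B had 2818, 3629.9, 4294 and 4856, a centred change of 1.20 ± 0.38. SDHD, a membrane anchor, had 3754, 3911, 4173 and 4513 on array A, while array B had 4077, 4631, 4772 and 5191, a change of 0.76 ± 0.38. Its signal was brighter than that of SDHA on array A at every step and the change was smaller. SDHC, the other anchor, had 1753, 1579, 1721 and 1713 on array A, while array B had 1750.4, 1353, 1600.2 and 1610.5 by its brightest probe set, a change of 0.38 ± 0.39. On the deposited scale SDHC had a change of -0.08, and after quantile normalization those of SDHC and SDHD were -0.47 and -0.53.

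**Figure D2:**
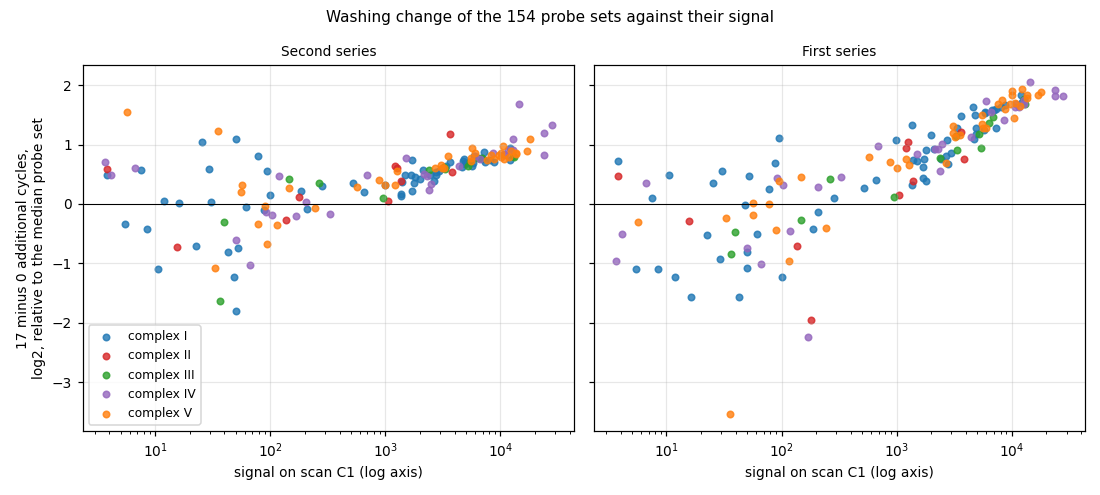
Change over 17 additional cycles (log2, relative to the median probe set) of each of the 154 probe sets against its signal on scan C1 (log axis), in the second and the first series, coloured by complex. Among bright probe sets the change is larger at higher signal in both series and the complexes overlap, while dim probe sets scatter on both sides of 0.

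On the centred scale the median change was larger in brighter members. The 96 members of the brightest 10% had a median change of 1.28 and the 58 others one of -0.26, while the 26 members below the median of all probe sets had -0.52. Each member was also set against all probe sets in the same bin of 5468 by signal on C1. The median excess over that bin was 0.12 (array A) and 0.27 (array B) for complex I, -0.42 and -0.05 for complex II, 0.02 and 0.34 for complex III, 0.41 and 0.39 for complex IV, and 0.40 and 0.52 for complex V. Since members are brighter than most probe sets of the brightest 10%, finer bins of 547 probe sets were added after the data were seen. Against the same bin of 547 the excess was -0.02 and 0.08 for complex I, -0.47 and -0.10 for complex II, -0.20 and -0.10 for complex III, -0.02 and 0.02 for complex IV, and 0.04 and 0.02 for complex V. With the finer bins 66 of the 154 members lay above their bin on array A and 81 on array B. In complex III only 1 of 14 did so on array A, against 5 of 14 on array B.

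The second series repeated the washing after new staining, when arrays A and B had already passed 17 or more cycles. The medians were smaller in 4 of the 5 complexes, with medians of 0.49 for complex I, 0.46 for complex II, 0.60 for complex III, 0.62 for complex IV and 0.74 for complex V, against 0.05 over all probe sets and 0.49 over the brightest 10%. After quantile normalization the same medians were 0.01, 0.02, 0.0036, -0.0045 and -0.02. Without scan A5 the median of complex II was 0.10, and without A8 it was 0.21. On array A the medians of the 5 complexes were 0.61, 0.59, 0.75, 0.68 and 0.77, and on array B 0.35, 0.12, 0.59, 0.55 and 0.68. The gap between the arrays was smaller than in the first series, least so for complex II. In all, 111 members were above the median probe set on both arrays, where 32.0% of all probe sets were, and 16 were below it on both, where 25.5% of all were. No member passed the test (limma, 0% of all probe sets called), and the lowest adjusted p was 0.39. At an unadjusted p under 0.05, 65 members (42.2%) were higher and 2 (1.30%) lower, of 3890 higher (7.11%) and 2747 lower (5.02%) among all. In the brightest 10% of all, 36.7% were higher and 0% lower. The variance trend with robust moderation called 70 members higher (4.36% of all) and 0 lower (0.170% of all).

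COX7C again had a large change in the second series, with signals of 6253, 13988, 17917 and 17975 on array A, while array B had 8952, 12031, 21894 and 21195, a centred change of 1.68 ± 0.29. Its sister probe set 217491_x_at started higher on array A, at 12589, and ended at 18392. Both probe sets ended close together, and the difference lay in the scans right after staining. SDHA had a change as large as before, of 1.18 ± 0.24, at 1357, 1726, 2749.9 and 2962 on array A, while array B had 2604, 2662, 4102 and 4067. NDUFB2 had 7665, 9480.3, 10484 and 9896 on array A, while array B had 13958, 16781, 19754 and 20198, a change of 0.75 ± 0.21.

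The difference of the washing changes, second minus first series, was tested itself. Its median was -0.41 for complex I, -0.07 for complex II, -0.43 for complex III, -0.50 for complex IV and -0.53 for complex V, against -0.04 over all probe sets and -0.40 over the brightest 10%. After quantile normalization the medians of the complexes lay between -0.09 and 0.22. In 117 of 154 members (76.0%) the change was smaller in the second series and in 37 it was larger, whereas it was smaller in 52.1% of all probe sets and in 91.5% of the brightest 10%. No member passed the test (limma, 0% of all probe sets called, lowest adjusted p 0.73). At an unadjusted p under 0.05, 18 members (11.7%) were lower and 5 (3.25%) higher, of 1523 lower (2.79%) and 2037 higher (3.73%) among all. In the brightest 10% of all, 6.24% were lower and 0.037% higher. The difference was -1.08 ± 0.38 for NDUFB2 and -1.05 ± 0.37 for ATP5PO, the subunit that joins the stalk to F1, whereas it was -0.02 ± 0.39 for SDHA.

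The re-labelling comparison set each scan of the second series against the scan of the first series at the same array and step, in 9 pairs. In each pair the later scan had also passed more cycles in total. Totals were 17 and 0 for A5 and A1, 21 and 2 for B5 and B1, 12 and 6 for C2 and C1. New staining and added washing cannot be told apart in these pairs. The medians of the members lay close to those of other bright probe sets. The median change was 0.14 for complex I, 0.14 for complex II, 0.11 for complex III, 0.15 for complex IV and 0.23 for complex V, against 0.02 over all probe sets and 0.10 over the brightest 10%. After quantile normalization the medians were -0.01, 0.13, 0.03, 0.05 and 0.11, so that of complex I changed sign, and with the array as the unit those of complexes III and IV did, at -0.019 and -0.023. The arrays did not run the same way. On array A the medians of complexes I to V were 0.24, 0.17, 0.26, 0.21 and 0.40, on array B 0.03, 0.26, 0.16, 0.07 and 0.20, and on array C, with its single pair, -0.23, -0.08, -0.39, -0.36 and -0.12.

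The test called 1 member higher (limma, 0.465% of all probe sets called higher) and 2 lower (0.530% of all). ATP5IF1, which blocks the ATP synthase from running backwards, was higher by its probe set 223338_s_at. Its signals in the second series were 3112, 3692, 3553 and 4182 on array A, 2894, 3138, 3142 and 3086 on array B and 1842 on array C, against 1758, 2555, 2573 and 2622, 2270.0, 1796, 1858 and 1994, and 1273 in the first. On each array the series did not overlap, and the change was 0.67 ± 0.13 (adjusted p = 0.045). The brightest probe set of ATP5IF1, 218671_s_at, had a change of 0.03 ± 0.13, so it did not show the shift. The remaining probe set of the gene, 223339_at, was not called.

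COX1, the catalytic core subunit of complex IV, was lower. Its signals in the second series were 5101, 9944, 12142 and 14953 on array A, 17722, 27474, 21381 and 25261 on array B and 12792 on array C, against 12888, 19068, 25852 and 32464, 19552, 30198, 41147 and 50796, and 27839 in the first. Every pair was lower in the second series, by -0.82 ± 0.16 on average (adjusted p = 0.048). COX1 had the highest signal of all probe sets on scan C1. The study describes scanner saturation for some probes in the second series, and its part in the change of COX1 was not tested. COX2 and COX3 were not called. The 2 probe sets of COX2 had changes of -0.16 ± 0.15 and -0.14 ± 0.14, and that of COX3 had one of 0.61 ± 0.16 (adjusted p = 0.096). The remaining call was the dim probe set 213736_at of COX5B, with 20.5, 14.4, 15.2 and 14.8 on array A, 8.43, 15.7, 5.02 and 5.83 on array B and 51.5 on array C in the second series, against 146, 109, 23.9 and 15.4, 83.9, 57.8, 33.3 and 18.8, and 169 in the first. It fell by 1.93 ± 0.32 on the log2 scale (adjusted p = 0.034), while the bright probe sets of COX5B had changes of 0.05 to 0.24. The 3 calls are near the threshold. With the array as the unit, or without pairing the scans, 0 members were called, and leaving out any 1 pair of array A or B left at most 1. Over the alternatives the adjusted p ranged between 0.0082 and 0.77 for ATP5IF1, between 0.011 and 0.77 for COX1, whose call was lost whichever pair was left out, and between 0.027 and 0.77 for COX5B.

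**Figure D3:**
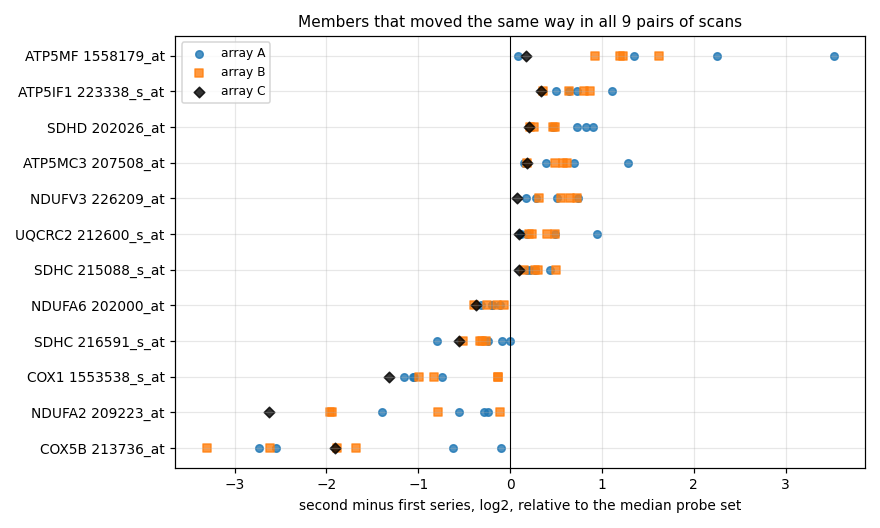
Second minus first series (log2, relative to the median probe set) in each of the 9 pairs of array A, B and C for the 12 members whose pairs all had the same sign. ATP5IF1 and SDHD lie to the right of 0 in every pair, and COX1 and COX5B to the left.

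In all, 7 members were higher in all 9 pairs, where 1.80% of all probe sets were, and 5 were lower in all 9, where 1.69% were. SDHD was among the 7. On array A it had 5099, 6086, 7614 and 6388 in the second series, against 3754, 3911, 4173 and 4513 in the first. On array B it had 5602, 5374, 6219 and 6185 in the second series, against 4077, 4631, 4772 and 5191 in the first, a change of 0.51 ± 0.13 (adjusted p = 0.084). SDHC had a probe set in each direction, 215088_s_at with 0.27 ± 0.11 and 216591_s_at with -0.34 ± 0.13. A further 7 members were on opposite sides on the arrays, one way in every pair of array A and the other way in every pair of array B, a share of 4.55% beside 4.38% of all probe sets.

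Genes with several probe sets show how far the value of a subunit depends on the probe set read. Of the 79 genes, 45 have more than 1 probe set, and the brightest had 1.01 to 2622 times the signal of the dimmest on C1, with a median of 92.9. The brightest probe set had the larger change over the first washing series, compared with the dimmest, in 40 of 45 genes on array A and in 37 of 45 on array B, and in 34 genes on both. Among the 8 genes with a ratio of at most 8.56, this held for 5 on array A, 5 on array B and 4 on both. SDHC has 7 probe sets, with changes between -1.96 ± 0.77 and 1.04 ± 0.45. Its lowest change, that of 238056_at, rested on array B, where the signals were 162, 111, 88.3 and 12.1, against 282, 228, 221 and 132 on array A. The lowest change of all 154 probe sets was that of 1564482_at, a dim probe set of ATP5PO, with 105, 12.2, 8.54 and 6.33 on array A, while array B had 62.6, 57.1, 13.3 and 4.07, a change of -3.54 ± 0.78. In the second series the same probe set had 20.0, 61.7, 98.7 and 119 on array A, while array B had 13.9, 52.5, 3.27 and 8.49, so that the arrays went opposite ways. The brightest probe set of ATP5PO had changes of 1.84 ± 0.38 and 0.80 ± 0.22 in the first and the second series.

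**Figure D4:**
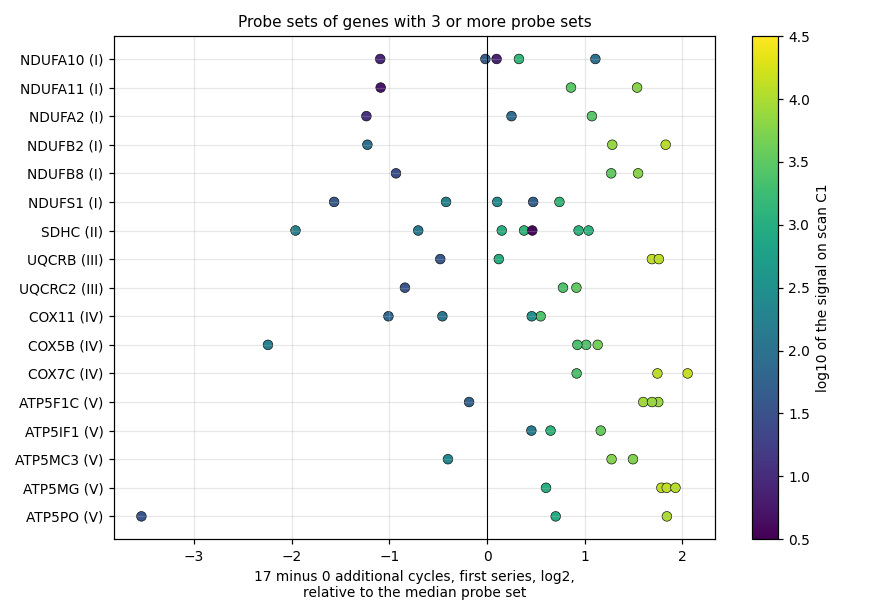
Change over 17 additional cycles in the first series (log2, relative to the median probe set) of every probe set of the genes with 3 or more, coloured by the log10 signal on scan C1, with the complex in brackets. Bright probe sets lie to the right, and most of those left of 0 are dim.

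The arrays also differed in the level of some members. UQCRB, a subunit of complex III, has 4 probe sets, of which 3 are in the brightest 10% on scan C1 and 205849_s_at and 209066_x_at are the brightest. By 205849_s_at array B had 15708, 17919.7, 20684 and 21755 in the second series and 10772, 15642, 20518 and 25021 in the first, and array A had 10997, 13363, 14488 and 15837 and then 6779, 10098, 13302 and 16128. By 209066_x_at array B had 9007, 8494, 14047 and 11766 in the second series and 10342, 16577, 21079 and 26095 in the first, whereas array A had 3334, 4262, 5447 and 5215 and then 2409, 3647, 5042 and 5820.3. These probe sets of UQCRB were thus close on array C in the first series (13023 and 12849) and far apart on array A. The third, 209065_at, had 936 on scan B3 and 771 on scan A3. COX3 ran the other way. It had 5248, 5169, 7300.1 and 6333 on array B in the second series and 3885, 3319, 3226 and 3139 in the first, 3332 and 1519.7 on array C, but 9865, 13474, 15497 and 15903 and then 8034, 10832, 13959.9 and 16948 on array A. Its centred level on scan B3 was 1.43 log2 units below that on scan A3, the lowest value among the 5468 probe sets of the brightest 10%, whose median was 0.99 above. That of UQCRB 209066_x_at was 2.74 above, rank 5467 of 5468, while that of 205849_s_at was 1.31 above and that of 209065_at 0.96 above. In these probe sets the suffix _x_at marks probes that can bind other transcripts as well, and its part in the difference was not tested.

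**Figure D5:**
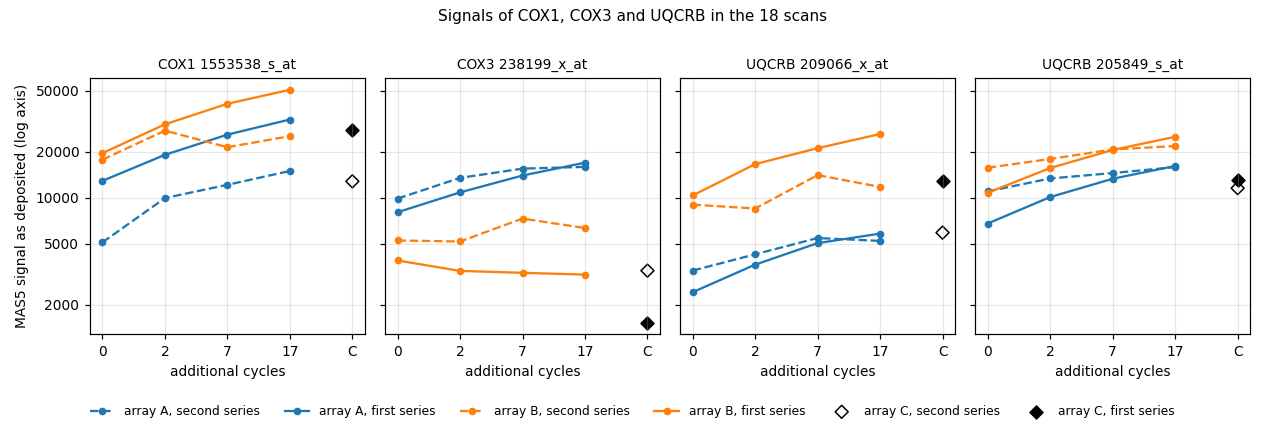
Signals as deposited (log axis) of COX1, COX3 and the 2 brightest probe sets of UQCRB after 0, 2, 7 and 17 additional cycles on arrays A and B and on array C, with the second series dashed or open and the first solid. COX3 is higher on array A and UQCRB 209066_x_at higher on array B in every scan, while UQCRB 205849_s_at shows a smaller gap.

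Complex IV has isoforms that differ between tissues, and here the broadly expressed member of each pair was bright. COX6A1 had a signal of 10763 on C1 against 50.1 for the muscle isoform COX6A2, COX6B1 6655 against 91.5 for COX6B2, COX7B 10947 against 6.68 for COX7B2, and COX8A 6016 against 3.67 for COX8C. These pairs come from different probe sets, and the values are given side by side only. COX7A2 had 12899, and its muscle and heart isoform COX7A1 had 689, which is above the 51.0 of the median probe set. COX7A1 had 516, 565, 741 and 633 on array A in the second series and 322, 572, 653 and 754 in the first, and 649.6, 613, 668 and 689 and then 619, 509.7, 556 and 545 on array B. COX6A2 had 204, 179.6, 125 and 91.6 on array A in the second series and 293, 145, 105 and 90.8 in the first, so that it was lower after each washing step there. On array B it had 21.6, 49.1, 39.8 and 13.9 in the second series and 67.9, 38.9, 67.0 and 41.2 in the first, with no such order. The 5 tissue isoforms had a median washing change of 0.35 in the first series, against 1.63 for the 9 broadly expressed nuclear subunits. Their median signals on C1 were 50.1 and 10763. Against probe sets of the same bin of 547 by signal the isoforms had medians of 0.58 on array A and 0.09 on array B. The broadly expressed subunits had -0.10 and 0.04. The isoform medians rest on 5 probe sets, 3 of them below the median of all probe sets on C1.

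Subunit c of complex V, the rotating ring, is encoded by 3 genes for the same mature protein. On C1 the brightest probe sets of ATP5MC3, ATP5MC1 and ATP5MC2 had 5664, 3089.8 and 3069.8. Their changes in the first washing series were 1.28 ± 0.39, 1.20 ± 0.38 and 1.31 ± 0.50, which differ by less than their errors. The pseudogene ATP5MC2P1 had a signal of 116 and had a change of -0.96 ± 0.41. The assembly factor COX11, which carries copper to COX1, had a change of 0.55 by its brightest probe set, and its 3 dimmer probe sets had changes of -1.01 to 0.46.

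Genes of the pathway outside the rule were taken from a fixed list. Of the mitochondrially encoded ones, ND2, ND4, ND6 and ATP6 were analysed, and the others were not analysed here. Their brightest probe sets had a median change of 1.76 in the first washing series and 1.03 in the second. ATP6, a subunit of the proton channel of complex V, had the only probe set of this list called in any of the 4 tests, its brighter one, with -1.39 in the re-labelling comparison (adjusted p = 0.026), at 1729 on scan A5 and 5208 on scan B5 in the second series, against 9213 on scan A1 and 15590.0 on scan B1 in the first. Its dimmer probe set (a signal of 269.8 on C1) had a change of 0.12 (adjusted p = 0.77). ND4 had a change of -0.05 and ND2 one of 0.30. Of the subunits that the rule leaves out, COX4I1 had a change of 1.86, NDUFAB1 of 1.25, COX7A2L of 1.41 and the dim isoform COX4I2 (a signal of 86.2 on C1) of 0.52 in the first series. CYCS, cytochrome c itself, had a change of 1.66. All 45 assembly factors had a probe set, and the brightest ones had a median signal of 727 on C1 and a median change of 0.69, with 40 of 45 above 0. The 5 regulators PPARGC1A, PPARGC1B, NRF1, TFAM and ESRRA, which control the expression of mitochondrial genes, had a median signal of 306 and a median change of -0.09.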

How the data were processed

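RNA of 1 cell line was measured in 18 scans of 3 arrays. The authors deposited intensity values as MAS5 signals, 1 per probe set and scan. As read from the values, the trimmed mean (2% cut at either end) was 250.019 to 250.056 in every scan. The version of the software and the scaling target are not given in the sources used here. The files hold no reads, so the number of arrays limits the precision.

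Signals were taken to log2 and each scan was centred on its median. Washing (17 against 0 additional cycles, per series), the difference between the series and re-labelling (second against first series in 9 pairs) were fitted on all 54675 probe sets with limma 3.58.1 in R 4.3.3. The array was a block for washing and the pair of array and step for re-labelling, since the labels put these scans on the same physical array. P-values were adjusted by Benjamini-Hochberg at a threshold of 0.05. The fits were tested on simulated data. Descriptions were made in Python 3.11.15 with pandas 2.3.3.

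The members and lists were chosen with earlier results of these data known. A list for naming members went by role and, per complex, held the 3 brightest genes and those with the 3 largest and smallest changes. It also held SDHA, SDHC and SDHD, the isoform pairs and every gene of 3 or more probe sets. Only part of that list is named above. COX3, the ATP6 probe set and single dim probe sets were singled out after their values were seen. The alternatives were deposited or quantile-normalized values, an offset of 16, the 27337 brightest probe sets, a variance trend, a line over the cycles, other summaries of a gene and leaving out single scans.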

Additional observations from a re-analysis of the deposited data

Results flagged for a closer look

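The re-labelling change, second minus first series, had one sign in every pair of array A and the other in every pair of array B for 7 members, where 4.38% of all probe sets did so, and the difference between the arrays was not tested. It differed by 2.61 log2 units for NDUFA10 1555548_at (1.22 on A, -1.39 on B), by 3.08 for NDUFB2 240391_at (2.10, -0.98), by 0.962 for NDUFB7 202839_s_at (0.75, -0.21) and by 2.65 for NDUFS1 239268_at (2.00, -0.65). It differed by 0.82 for SDHC 202004_x_at (0.63, -0.19), by 0.451 for SDHC 210131_x_at (0.34, -0.11) and by 3.07 for ATP5F1C 214132_at (1.83, -1.24).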

How the results depend on the processing

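The number of members called was 0 in both washing series and became 61 in the first and 70 in the second when limma's variance trend and robust option were used, and 26 in the first with a line over the cycles. The 3 calls of the re-labelling comparison became 1 after quantile normalization, 6 with the variance trend, 0 with no replicate block, 0 with the array as the unit and 0 to 2 when 1 pair was left out. Medians in the first series depended on the scale: on the deposited signals they were 0.27, -0.034, 0.47, 0.50 and 0.74 for complexes I to V, and after quantile normalization 0.043, -0.29, -0.082, 0.0077 and 0.056 for complexes I to V. In the second series they were 0.19, 0.16, 0.31, 0.32 and 0.44 for complexes I to V as deposited, and 0.0077, 0.020, 0.0036, -0.0045 and -0.023 for complexes I to V after quantile normalization. By the brightest probe set of each gene they were 1.17 for complex I and 0.76 for complex II in the first series, and 0.79 and 0.81 for complexes IV and V in the second. In the second series complex IV had 0.47 with the offset and 0.73 with subunits only, and complex V 0.60 with the mean over the probe sets of a gene. Leaving out 1 scan at a time gave 0.10 to 0.62 for complex II, 0.55 to 0.78 for complex III, 0.52 to 0.77 for complex IV and 0.58 to 0.81 for complex V in the second series. Of the probe sets of NDUFB2, SDHA, SDHC, SDHD, UQCRB, COX1, COX2, COX7C and ATP5MK followed through the alternatives, the changes that turned negative in the first series were those of SDHC 215088_s_at (-0.076 as deposited, -0.47 quantile-normalized), and after quantile normalization of SDHD (-0.53), UQCRB 205849_s_at (-0.070) and COX1 (-0.010). The cause was not tested.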
